A study of Mus musculus with 8 samples.

Results

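The 10 genes described here encode enzymes and regulators that handle methylglyoxal and keep protein thiols reduced: Glo1, Hagh, Glrx, Glrx3, Txn1, Txnrd1, Txnip, Gsr, Gclc and Gclm. They are 10 of the 17384 genes listed in the expression table, and all 10 passed the filter on low counts that left 12340 genes to test. Glo1 and Glrx were picked from their values in these same libraries, because Glo1 was higher and Glrx lower in the Eaf2-deficient group with little spread between libraries. Their difference is therefore given as a description, with no test. The other 8 genes were added for their function and were tested.

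The cells were B220+CD3+ cells, sorted out of mouse spleens, with 4 RNA libraries from Eaf2-/-Faslpr mice and 4 from Faslpr mice. Both groups carry Faslpr, the lymphoproliferation allele of the death receptor gene Fas, and they differ in Eaf2, which encodes a partner of ELL transcription elongation factors. There was no group with intact Fas, and B220+CD3+ T cells accumulate in mice with that allele. The labels used here give no strain, age, sex or number of animals for a library, so the p-values measure the spread between these libraries, which may be technical.

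Methylglyoxal is a reactive by-product of glycolysis. Glyoxalase I, encoded by Glo1, converts the adduct of methylglyoxal and glutathione to S-lactoylglutathione. Glyoxalase II, encoded by Hagh, then releases D-lactate and returns the glutathione. Glutathione and thioredoxin are the main carriers of reducing power for protein thiols: glutaredoxins take glutathione off modified cysteines, thioredoxin reduces disulfides, and both systems draw on NADPH. In activated T cells these systems meet the oxidants made by a faster metabolism, and glutaredoxin 1 is known to remove glutathione from Fas itself.

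The promoter windows of Glo1 and Glrx are shown because these genes differed most between the groups, and that of Txnrd1 because it holds a match to a motif of oxidant-responsive genes. Each sequence is RefSeq's on the GRCm38.p6 build, from 250 bases before to 50 bases after an annotated start, 5′ to 3′ on the gene's strand, with matches to the motifs named below in capitals. The Glo1 window is chr17:30612610-30612909 on the minus strand, the Glrx window chr13:75839635-75839934 on the plus strand, and the Txnrd1 window, the second of 3 annotated starts, chr10:82858956-82859255 on the plus strand.
Glo1: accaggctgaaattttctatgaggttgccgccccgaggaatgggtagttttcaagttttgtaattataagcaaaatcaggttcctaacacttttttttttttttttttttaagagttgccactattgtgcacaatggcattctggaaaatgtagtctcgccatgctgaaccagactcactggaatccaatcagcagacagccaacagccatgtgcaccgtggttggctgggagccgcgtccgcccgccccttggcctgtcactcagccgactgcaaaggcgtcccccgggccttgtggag
Glrx: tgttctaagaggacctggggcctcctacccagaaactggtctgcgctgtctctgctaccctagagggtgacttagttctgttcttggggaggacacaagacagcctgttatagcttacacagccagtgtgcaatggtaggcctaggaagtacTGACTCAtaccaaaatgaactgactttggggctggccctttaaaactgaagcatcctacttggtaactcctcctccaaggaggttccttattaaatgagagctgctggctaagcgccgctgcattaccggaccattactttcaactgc
Txnrd1: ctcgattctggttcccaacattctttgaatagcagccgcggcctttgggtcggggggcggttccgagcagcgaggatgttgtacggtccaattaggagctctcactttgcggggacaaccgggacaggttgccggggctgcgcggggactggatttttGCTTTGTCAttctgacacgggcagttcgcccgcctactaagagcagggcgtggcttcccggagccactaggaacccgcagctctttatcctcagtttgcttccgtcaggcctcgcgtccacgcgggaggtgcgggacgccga

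The RefSeq table held promoter windows for 8 of the 10 genes, and none for Gsr and Gclc, which were therefore not searched. On both strands, 3 motifs were searched: the core TGACNNNGC of the antioxidant response element bound by NRF2, the AP-1 motif TGANTCA, and the E-box CACGTG. Of all 32851 windows of the same length, 12.4% held TGACNNNGC, 7.81% held TGANTCA and 7.15% held CACGTG. The Glo1 window above held none of these letters. The Glrx window held 1 AP-1 match, the capitals starting 98 bases before the start. TGACNNNGC was present in the second Txnrd1 window, 92 bases before the start, in the Gclm window, 134 bases before it, and in the second Hagh window, 21 bases after it. The capitals in the Txnrd1 window are the match on the opposite strand. The remaining windows of these 8 genes held none of the 3 motifs other than the second Glrx window, which is shifted by a single base. A match describes letters in a window and was not measured as binding.

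The libraries held 15.6 to 18.6 M estimated reads, and a count of 3 reads corresponded to 0.161 to 0.193 CPM, the count of a gene per megaread of its library. Eaf2 was 4.43, 4.2, 4.02 and 6.29 CPM in the Eaf2-/-Faslpr libraries and 25.7, 24.2, 20.7 and 31.5 CPM in the Faslpr libraries. Its mean in the Eaf2-/-Faslpr group was 18.5% of the other (log2 fold change −2.43 ± 0.18 SE, edgeR quasi-likelihood test, adjusted p = 2.9e-05), so the labels and the targeted gene point the same way. All 12 T cell markers had reads in all 8 libraries. Their sums did not overlap, at 6773 to 7011 CPM in the Eaf2-/-Faslpr libraries and 6464 to 6622 CPM in the Faslpr libraries. Of the 12, 1 rose, Cd2 (log2 fold change 1.05, edgeR, adjusted p = 0.00455), and none fell. The sums of the 18 B cell markers did not overlap, at 435 to 807 CPM in the Eaf2-/-Faslpr libraries and 118 to 194 CPM in the Faslpr libraries. Of these B cell markers, 17 rose and none was at 0 in a library, and 8 of 10 MHC class II genes rose, with sums of 615 to 1081 against 269 to 441 CPM. The macrophage sums ranged from 69.0 to 164 against 55.5 to 69.7 CPM, with Fcgr1 and Marco at 0 in at least 1 library. The neutrophil sums ranged from 13.8 to 82.3 against 12.6 to 17.3 CPM, with Retnlg and Mmp8 at 0 in at least 1 library. The sums of 9 plasma cell markers, at 690 to 851 against 860 to 983 CPM with Tnfrsf17 at 0 in at least 1 library, did not overlap either. Nor did those of the NK cell markers, at 1693 to 1927 against 1948 to 2239 CPM with Ncr1 and Klra8 at 0 in at least 1 library. Most of the plasma cell sum came from Sdc1 and Xbp1, and most of the NK sum from Eomes. The NK markers Ncr1, Klrb1c and Klra8 had too few reads to be tested. These sums therefore mainly follow single genes and do not count plasma or NK cells. The sums of dendritic cell markers (65.2 to 78.1 against 65.8 to 76.5 CPM) and erythroid markers (2.98 to 20.6 against 5.56 to 27.6 CPM) overlapped. The most abundant markers were Ptprc at 2312 against 1989 CPM (T cells), Spib at 52.6 against 32.1 (B cells), Cd74 at 301 against 103 (MHC class II), Sdc1 at 365 against 439 (plasma cells), Cd68 at 27.2 against 32.0 (macrophages), Cxcr2 at 11.4 against 12.5 (neutrophils), Tcf4 at 38.1 against 30.3 (dendritic cells), Eomes at 1540 against 1794 (NK cells) and Hbb-bs at 3.39 against 3.83 (erythroid cells). The highest B cell sum, 807 CPM, and the highest neutrophil sum, 82.3 CPM, were both in Eaf2-/-Faslpr replicate 3. In sorted bulk samples, fewer cells of a type and less RNA per cell cannot be told apart. The part of these markers in the results below was not tested. Values without replicate 3 are given for Glo1 and Glrx. The remaining Eaf2-/-Faslpr libraries still held B cell sums of 435 to 455 CPM, above all Faslpr libraries, so those values cannot address the B cell difference.

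Glo1 was higher in every Eaf2-/-Faslpr library, while Hagh, the next step of the same pathway, differed by less than its error. Glo1 (Entrez gene 109801, chromosome 17) was 115, 106, 111 and 106 CPM in the Eaf2-/-Faslpr libraries and 44.0, 40.1, 36.8 and 39.5 CPM in the Faslpr libraries. Every Eaf2-/-Faslpr library was above every Faslpr library, and the groups did not overlap. The means were 109.6 ± 4.28 CPM (SD, n = 4) and 40.1 ± 2.94 CPM (SD, n = 4), a 2.73-fold difference (log2 fold change 1.45 ± 0.07 SE). These values rest on 1789 to 2018 estimated reads per library in the Eaf2-/-Faslpr group and 669 to 767 in the Faslpr group. The log2 difference stayed between 1.41 and 1.5 when each library was left out in turn, and was 1.44 without Eaf2-/-Faslpr replicate 3.

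Hagh (Entrez gene 14651, also on chromosome 17) was 11.3, 12.2, 11.1 and 11.1 CPM in the Eaf2-/-Faslpr libraries. It was 10.3, 11.6, 12.9 and 13.8 CPM in the Faslpr libraries, and the groups overlapped. Its log2 fold change was −0.09 ± 0.12 SE (edgeR, adjusted p = 0.720).

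**Figure D1:**
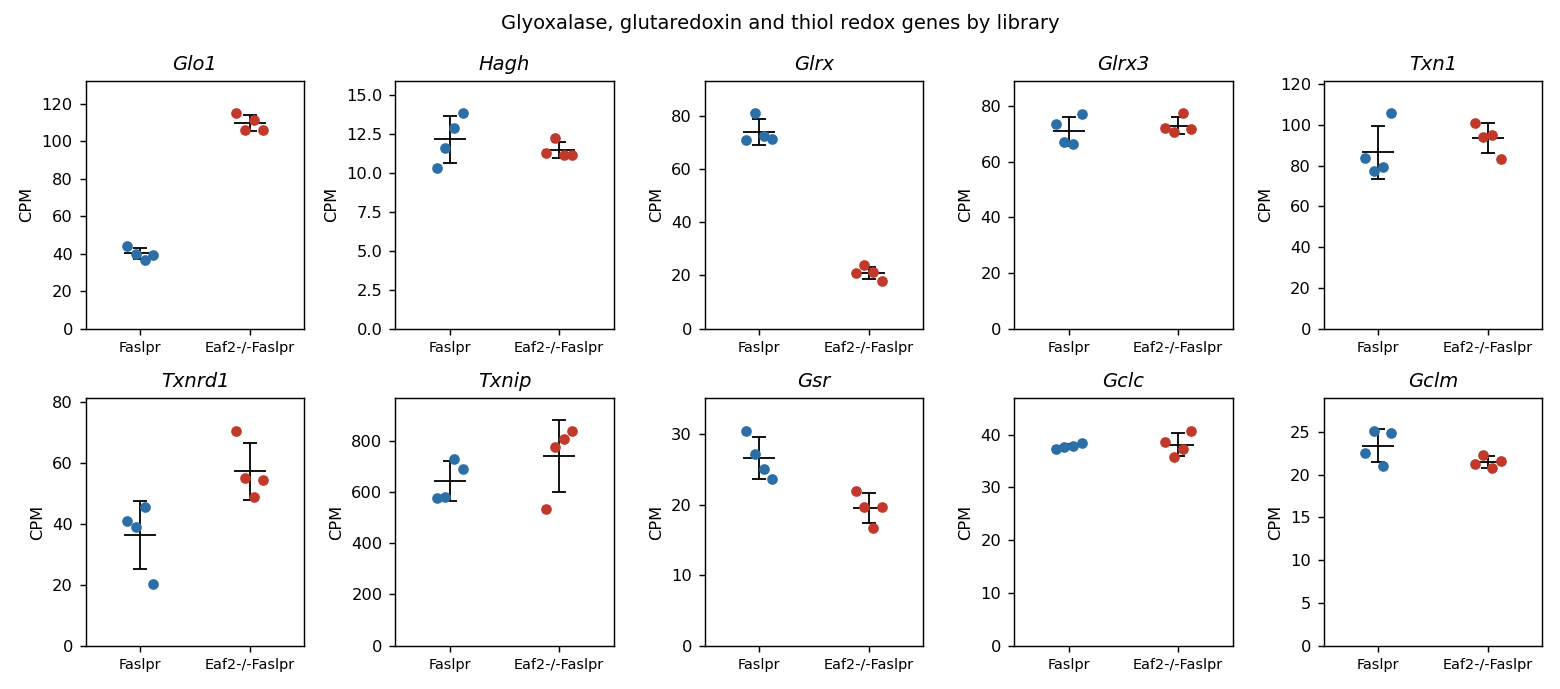
Level of each of the 10 genes in each of the 8 libraries, in CPM on axes that start at 0, with a point for each library, a bar for the group's mean and whiskers for its SD (n = 4). The Glo1 points lie at 106 to 115 CPM in the Eaf2-/-Faslpr group and 36.8 to 44.0 CPM in the Faslpr group, and the Glrx points lie the other way round, at 17.9 to 23.8 and 71.1 to 81.0 CPM.

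Glrx was lower in every Eaf2-/-Faslpr library, while the levels of the other glutaredoxin gene of the set, Glrx3, overlapped between the groups. Glrx (Entrez gene 93692, chromosome 13) encodes glutaredoxin 1, a dithiol enzyme of the cytosol. It was 20.8, 23.8, 21.1 and 17.9 CPM in the Eaf2-/-Faslpr libraries and 71.1, 81.0, 72.3 and 71.4 CPM in the Faslpr libraries. All Eaf2-/-Faslpr libraries were below all Faslpr libraries, of which replicate 2 was the highest. The means were 20.9 ± 2.4 CPM (SD, n = 4) and 73.9 ± 4.72 CPM (SD, n = 4), which is 3.54-fold lower (log2 fold change −1.82 ± 0.10 SE). The estimated reads behind these values numbered 323 to 435 and 1240 to 1359 per library. The log2 difference stayed between −1.89 and −1.76 when each library was left out in turn, and was −1.83 without Eaf2-/-Faslpr replicate 3.

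Glrx3 (Entrez gene 30926, chromosome 7) encodes a monothiol glutaredoxin, also called PICOT, that takes part in iron-sulfur handling and binds protein kinase C theta in T cells. It was 72.2, 70.9, 77.4 and 71.6 CPM in the Eaf2-/-Faslpr libraries and 73.8, 67.2, 66.3 and 77.1 CPM in the Faslpr libraries. The ranges overlapped, and the log2 fold change was 0.04 ± 0.07 SE (edgeR, adjusted p = 0.797).

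Of the thioredoxin system, none of Txn1, Txnrd1 and Txnip passed the test, although the Txnrd1 levels of the groups did not overlap. Txnrd1 (Entrez gene 50493, chromosome 10) encodes the selenoprotein that reduces thioredoxin with NADPH. It was 70.7, 55.2, 48.8 and 54.3 CPM in the Eaf2-/-Faslpr libraries and 41.0, 39.1, 45.5 and 20.2 CPM in the Faslpr libraries. Faslpr replicate 4 was the lowest and Eaf2-/-Faslpr replicate 1 the highest. The means of 57.3 ± 9.37 and 36.5 ± 11.2 CPM (SD, n = 4 each) gave a log2 fold change of 0.65 ± 0.22 SE (edgeR, adjusted p = 0.0835). Without Faslpr replicate 4 the log2 fold change was 0.45 and the edgeR adjusted p was 0.0483, and without Eaf2-/-Faslpr replicate 1 they were 0.53 and 0.186. DESeq2 gave 0.65 with an adjusted p of 0.0268.

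Txn1 (Entrez gene 22166, chromosome 4), which encodes cytosolic thioredoxin, was 101, 93.9, 95.2 and 83.2 CPM in the Eaf2-/-Faslpr libraries. It was 83.6, 77.3, 79.3 and 106 CPM in the Faslpr libraries, where replicate 4 was again apart, here as the highest. The log2 fold change was 0.11 ± 0.11 SE (edgeR, adjusted p = 0.587). Without the libraries numbered 4 in both groups it was 0.27 with an edgeR adjusted p of 0.04996, just under the threshold.

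Txnip (Entrez gene 56338, chromosome 3) encodes an arrestin relative that binds thioredoxin and restrains glucose uptake. It was 532, 777, 808 and 839 CPM in the Eaf2-/-Faslpr libraries and 575, 581, 730 and 688 CPM in the Faslpr libraries. The lowest of all 8 libraries was Eaf2-/-Faslpr replicate 1, and the other 3 libraries of that group were above the whole Faslpr group. The log2 fold change was 0.20 ± 0.14 SE (edgeR, adjusted p = 0.435), and 0.33 with an adjusted p of 0.0698 without that replicate.

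Of the glutathione genes, Gsr fell and the subunits of glutamate-cysteine ligase, Gclc and Gclm, did not pass the test. Gsr (Entrez gene 14782, chromosome 8) encodes glutathione reductase, which regenerates glutathione from its oxidised form with NADPH. It was 22.0, 19.7, 16.7 and 19.6 CPM in the Eaf2-/-Faslpr libraries and 30.5, 27.2, 25.0 and 23.6 CPM in the Faslpr libraries. The groups did not overlap, with the highest Eaf2-/-Faslpr library close below the lowest Faslpr library. The means of 19.5 ± 2.16 and 26.6 ± 2.99 CPM (SD, n = 4 each) differed 1.36-fold (log2 fold change −0.45 ± 0.11 SE, edgeR, adjusted p = 0.0274). This call was lost on leaving out Eaf2-/-Faslpr replicate 2, 3 or 4 (adjusted p = 0.0627, 0.0678 and 0.0661) or Faslpr replicate 1 or 2 (adjusted p = 0.0752 and 0.0754). The log2 fold changes in these fits ran from −0.45 to −0.38. Without the libraries numbered 4 of both groups the adjusted p was 0.0548.

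Gclc (Entrez gene 14629, chromosome 9) encodes the catalytic subunit of glutamate-cysteine ligase, the rate-limiting enzyme of glutathione synthesis. It was 38.6, 35.7, 37.3 and 40.8 CPM in the Eaf2-/-Faslpr libraries and 37.4, 37.7, 37.8 and 38.5 CPM in the Faslpr libraries. In the Faslpr group it had the lowest coefficient of variation of the 10 genes, 1.23%, and the log2 fold change was 0.01 ± 0.07 SE (edgeR, adjusted p = 0.947). Gclm (Entrez gene 14630, chromosome 3) encodes the modifier subunit of the same enzyme. It was 21.3, 22.3, 20.7 and 21.6 CPM in the Eaf2-/-Faslpr libraries and 22.5, 25.1, 21.0 and 24.9 CPM in the Faslpr libraries. Here too the groups overlapped, and the log2 fold change was −0.12 ± 0.09 SE (edgeR, adjusted p = 0.442).

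Of the 8 genes added for their function, 1 fell, Gsr, where 4.96% of all tested genes fell. None of the 8 rose by edgeR, 1 was higher at an unadjusted p under 0.05, and DESeq2 called 1 and limma-voom 0, where 7.14% of all tested genes rose by edgeR. The median log2 fold change of the 8 was 0.02, against −0.01 over all tested genes. Counting both directions, 12.1% of tested genes were called. The groups did not overlap in 4 of the 10 genes, Glo1, Glrx, Txnrd1 and Gsr, and in 17.7% of all tested genes. Glo1 and Glrx are in that count because they were chosen for it.

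**Figure D2:**
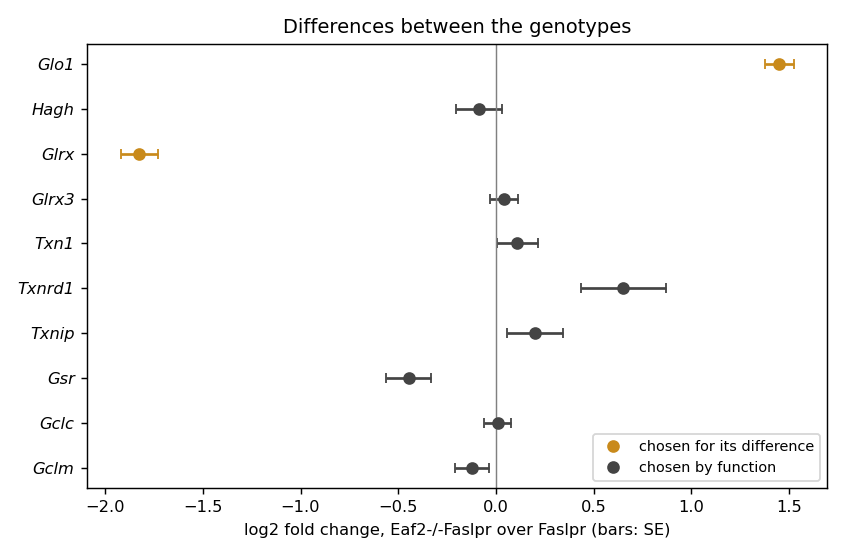
Log2 fold change of each of the 10 genes, Eaf2-/-Faslpr over Faslpr, from edgeR, with bars for the standard error (4 libraries a group). The genes chosen for their difference, Glo1 at 1.45 and Glrx at −1.82, lie beyond the 8 chosen by function, which run from −0.45 for Gsr to 0.65 for Txnrd1.

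The median coefficient of variation of the 8 genes chosen by function was 6.80% in the Eaf2-/-Faslpr group and 11.6% in the Faslpr group, against 9.67% and 12.1% over all tested genes. Glo1 had 3.90% and 7.33%, and Glrx 11.5% and 6.39%. Little spread was part of why both were chosen, but Glrx at 11.5% in the Eaf2-/-Faslpr group was above the median of 9.67% over all tested genes. The widest spread was that of Txnrd1 in the Faslpr group, 30.6%.

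Levels were compared between genes as FPKM, the authors' values scaled to transcript length and sequencing depth. In the Eaf2-/-Faslpr group the order was Txnip at 270, Txn1 at 93.5, Glo1 at 62.5, Glrx3 at 27.0, Txnrd1 at 17.2, Glrx at 16.4, Gclc at 11.8, Gclm at 10.6, Hagh at 9.04 and Gsr at 7.45 FPKM. Of the neighbours in that order, Txnrd1 and Glrx overlapped in range, as did Gclc and Gclm. In the Faslpr group the order was Txnip at 233, Txn1 at 85.9, Glrx at 57.6, Glrx3 at 26.0, Glo1 at 22.9, Gclc at 11.8, Gclm at 11.5, Txnrd1 at 10.9, Gsr at 10.1 and Hagh at 9.59 FPKM. There, Glrx3 and Glo1 overlapped in range, and so did each pair of neighbours from Gclc downwards. Glo1 thus ranked 3 of 10 in the Eaf2-/-Faslpr group and 5 of 10 in the Faslpr group, and Glrx ranked 6 and 3. Among all tested genes, Glo1 was at percentile 89.6 and 68.9 by FPKM, and Glrx at percentile 59.1 and 88.3. Of the 10, the Txnip transcript was the most abundant in every library, and all 10 genes were well above the level of 3 reads.

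**Figure D3:**
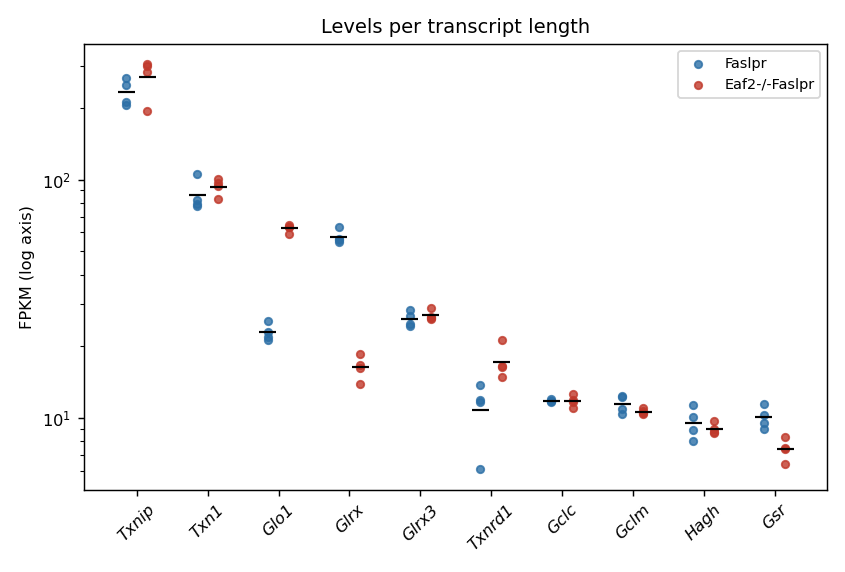
Level of each gene per transcript length in each library, in FPKM on a log axis, with a point for each library and a line for the group's mean. Glo1 (62.5 against 22.9 FPKM) ranks 3 in the Eaf2-/-Faslpr group and 5 in the Faslpr group, and Glrx (16.4 against 57.6 FPKM) ranks 6 and 3. Txnip (270 against 233 FPKM) and Txn1 (93.5 against 85.9 FPKM) lead the order in both groups.

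The genes beside Glo1, Glrx and Gsr were read to place these differences along the chromosome, using the gene order of GRCm38.p6 and the 5 tested genes on each side. Beside Glo1, 2 of 10 neighbours rose and none fell by edgeR, while 1 was lower at an unadjusted p under 0.05, DESeq2 called 1 lower and limma-voom 0. Over all tested genes, 7.14% rose and 4.96% fell by edgeR, the shares to set beside the neighbour counts here and below. The gene next to Glo1 on one side, Dnah8, which encodes an axonemal dynein heavy chain, was 905, 1160, 1198 and 1444 CPM in the Eaf2-/-Faslpr libraries. It was 463, 543, 641 and 694 CPM in the Faslpr libraries, without overlap (log2 fold change 1.01 ± 0.16 SE, edgeR, adjusted p = 0.00248). Ubash3a, an inhibitor of T cell receptor signalling 3 genes along on that side, rose from 6.60 ± 1.68 to 13.1 ± 0.662 CPM (log2 fold change 0.99, edgeR, adjusted p = 0.00573).

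On the other side of Glo1, Btbd9 was 79.5, 75.9, 73.1 and 77.2 CPM against 67.5, 72.4, 67.9 and 56.9 CPM. Its groups did not overlap, but the log2 fold change of 0.21 ± 0.08 SE did not pass the test (edgeR, adjusted p = 0.138). The other 7 neighbours had log2 fold changes from −0.25 for Zfand3 to 0.18 for Rsph1, with Rnf8 at −0.04, Ccdc167 at 0.01, Cmtr1 at 0.06, Slc37a1 at 0.07 and Abcg1 at 0.13. In that annotation Glo1 overlaps neither Dnah8 nor Btbd9. As background, a stretch of mouse chromosome 17 that holds Glo1 is known to differ in copy number between inbred strains. Copy number was not measured here, so its part in the Glo1 and Dnah8 values was not tested.

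Beside Glrx, 2 neighbours rose and 2 fell. Mctp1, which encodes a calcium-binding membrane protein, rose from 16.0 ± 2.32 to 58.4 ± 5.51 CPM (log2 fold change 1.87, edgeR, adjusted p = 9.67e-06). Arsk, encoding a sulfatase, rose by a log2 fold change of 0.66 (adjusted p = 0.0175), a call lost without Eaf2-/-Faslpr replicate 4 (adjusted p = 0.0530) or Faslpr replicate 2 (adjusted p = 0.0519). Zfp825 and Gm46430 fell, at log2 fold changes of −0.55 and −0.60 (edgeR, adjusted p = 0.00389 and 0.00379). The gene next to Glrx, Ell2, encodes a member of the ELL family with which EAF proteins associate. It was 9.55 ± 2.06 against 12.5 ± 5.11 CPM (log2 fold change −0.39, edgeR, adjusted p = 0.401). Of the rest, Spata9 at −0.82 (adjusted p = 0.247), Rfesd at −0.14, Cast at −0.11, Ttc37 at −0.11 and Erap1 at 0.06 did not pass.

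Beside Gsr, 1 neighbour rose, Tex15 (log2 fold change 0.91, edgeR, adjusted p = 0.00353), and 3 fell. The latter were Purg at −0.53 and Dctn6 at −0.43 (adjusted p = 0.0027 each), and Leprotl1 at −0.26 (adjusted p = 0.0172, and 0.0590 without Eaf2-/-Faslpr replicate 4). Wrn at −0.34, Saraf at −0.20, Ppp2cb at 0.13, Gtf2e2 at 0.17, Ubxn8 at 0.21 and Mboat4 at 0.67 did not pass. Taking 10 tested genes on each side instead, 5 of 20 rose and 1 fell for Glo1, 3 rose and 3 fell for Glrx, and 4 rose and 5 fell for Gsr. Of all tested genes, 12.1% were called in either direction.

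**Figure D4:**
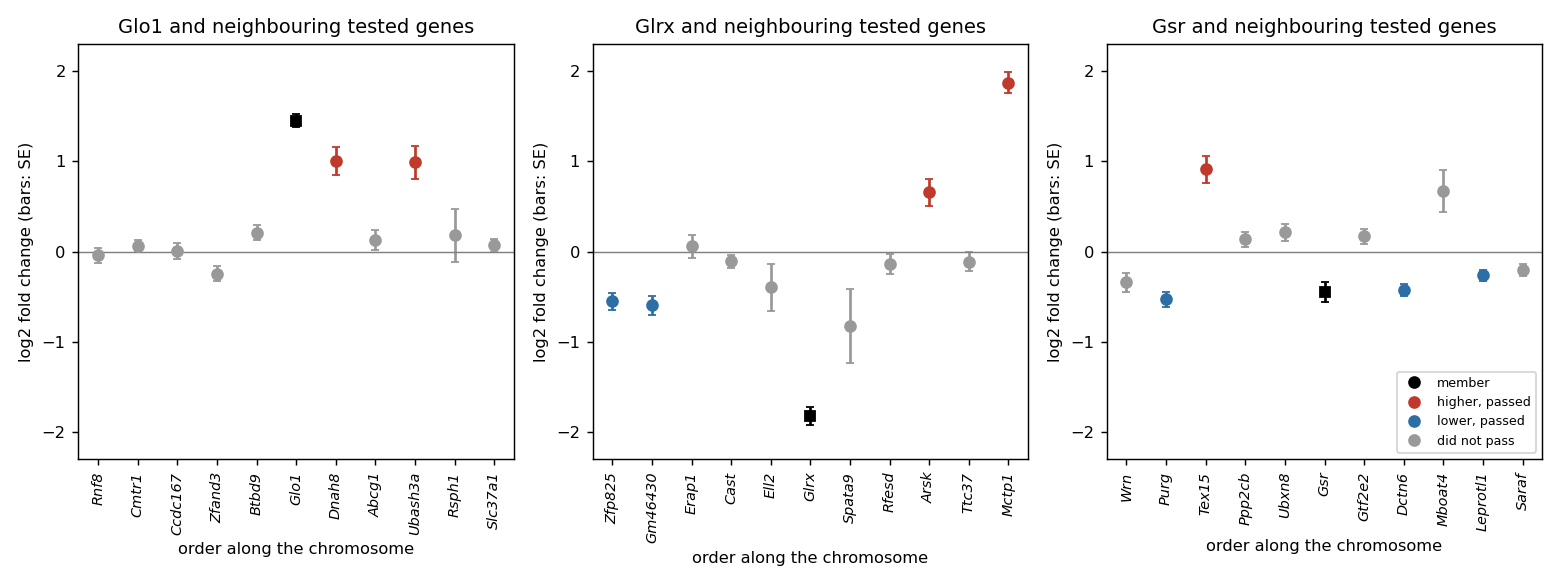
Log2 fold change with its standard error for Glo1, Glrx and Gsr (squares) and the 5 tested genes on each side of each (circles), in gene order on the x axis without distances. Next to Glo1 at 1.45, Dnah8 is at 1.01 and Btbd9 at 0.21, next to Glrx at −1.82, Ell2 is at −0.39, and Mctp1, the last of the 5 genes on one side of Glrx, is at 1.87.

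Around these 10 genes, 10 wider lists of thiol redox and detoxification genes held 114 further genes, of which 113 were in the table and 99 were tested. Of the 99, 10 rose and 2 fell, and their median log2 fold change was 0.02, against −0.01 over all tested genes. The shares over all genes were 7.14% and 4.96%.

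In glyoxal handling, 1 of 10 further genes rose, with a median of −0.05. None fell by edgeR, while 2 were lower at an unadjusted p under 0.05, and DESeq2 called 1 lower and limma-voom 0. The gene that rose was Aldh2, the mitochondrial aldehyde dehydrogenase, at 7.58, 8.25, 15.5 and 7.07 CPM against 2.35, 3.34, 2.86 and 2.10 CPM (log2 fold change 1.85, edgeR, adjusted p = 0.00222). Its highest library, Eaf2-/-Faslpr replicate 3, was also the one with the highest B cell and neutrophil sums, whose part in this value was not tested. Park7 at −0.29 and Lactb2 at −0.34 (adjusted p = 0.064) did not pass.

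Among 5 further glutaredoxin and BolA genes none passed, with 0 at an unadjusted p under 0.05, 0 by DESeq2 and 0 by limma-voom. Their median log2 fold change was −0.09. The mitochondrial glutaredoxin genes Glrx2 and Glrx5 were 37.3 ± 5.08 against 39.7 ± 1.01 CPM and 21.8 ± 2.0 against 20.4 ± 1.99 CPM.

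In the thioredoxin system 2 of 9 further genes rose. Txndc12, encoding a thioredoxin-like protein of the endoplasmic reticulum, rose from 110 ± 19.7 to 161 ± 5.02 CPM (log2 fold change 0.55, edgeR, adjusted p = 0.0116). Arrdc4, an arrestin relative of Txnip, rose from 0.721 ± 0.387 to 2.86 ± 1.14 CPM (log2 fold change 1.97, edgeR, adjusted p = 0.0156). Both calls were lost without the libraries numbered 4 of both groups (adjusted p = 0.0506 for Txndc12 and 0.0649 for Arrdc4). Mitochondrial thioredoxin, Txn2, at −0.05 and its reductase Txnrd2 at 0.02 did not pass. Among the regulators and arrestin relatives of Txnip, which include Arrdc4 a second time, Nedd4l, a ubiquitin ligase, fell from 63.3 ± 7.89 to 48.3 ± 2.83 CPM (log2 fold change −0.39, edgeR, adjusted p = 0.0259). That call was lost on leaving out any of Eaf2-/-Faslpr replicates 1, 2 and 3 or Faslpr replicates 1 and 2 (adjusted p of 0.0558 to 0.0673). Mlxip, a glucose-sensing activator of Txnip, was at 0.19 and did not pass.

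None of 7 peroxiredoxin and sulfiredoxin genes passed, where 1 was higher at an unadjusted p under 0.05 and DESeq2 and limma-voom each called 1 higher. That gene was Srxn1, which encodes sulfiredoxin. It was 3.92, 7.97, 3.69 and 4.14 CPM against 0.917, 0.894, 3.85 and 0.968 CPM (log2 fold change 1.57 ± 0.49 SE, edgeR, adjusted p = 0.068). Faslpr replicate 3 lay within the Eaf2-/-Faslpr range, and Srxn1 is named here after its values were seen. Of the 8 further genes of glutathione synthesis and recycling none passed, with 0 at an unadjusted p under 0.05, 1 higher by DESeq2 and 0 by limma-voom.

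Of the glutathione peroxidases and transferases, 3 of 18 rose and 1 fell. The genes of theta class transferases, Gstt2 and Gstt1, rose from 11.0 ± 1.46 to 18.5 ± 2.78 CPM and from 0.968 ± 0.190 to 2.61 ± 0.982 CPM (edgeR, adjusted p = 0.00628 and 0.0155). Gsto1, whose product has glutaredoxin-like activity, rose from 1.16 ± 0.390 to 3.23 ± 1.65 CPM (log2 fold change 1.46, edgeR, adjusted p = 0.0288). This call was lost without Eaf2-/-Faslpr replicate 1, where the log2 fold change was 1.05 and the adjusted p 0.0540, and without Faslpr replicate 1, 2 or 3 (adjusted p = 0.0803, 0.0789 and 0.0667). Mgst3, a microsomal transferase, fell from 9.61 ± 4.10 to 3.46 ± 1.24 CPM (log2 fold change −1.47, edgeR, adjusted p = 0.0187). The calls of Gstt1 and Mgst3 were lost without the libraries numbered 4 of both groups (adjusted p = 0.0573 and 0.0707).

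Of the 12 further genes of NADPH supply, 1 rose: Idh2, the mitochondrial NADP-dependent isocitrate dehydrogenase, from 5.04 ± 0.488 to 9.03 ± 0.297 CPM (log2 fold change 0.84, edgeR, adjusted p = 0.00233). Of the 11 genes of superoxide and peroxide removal, Fth1, the ferritin heavy chain, rose from 149 ± 19.7 to 196 ± 15.6 CPM (log2 fold change 0.40, edgeR, adjusted p = 0.0282). Its call was lost in the 6 fits that left out Eaf2-/-Faslpr replicate 2, 3 or 4 or Faslpr replicate 1, 2 or 3 (adjusted p of 0.0568 to 0.0824). Catalase, Cat, was 98.6 ± 2.2 against 99.4 ± 5.02 CPM.

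The genes of the oxidant-responsive factor NRF2 and its inhibitor, Nfe2l2 and Keap1, were 43.1 ± 3.12 against 41.8 ± 5.42 CPM and 51.9 ± 3.73 against 54.1 ± 3.55 CPM. Neither passed (edgeR, adjusted p = 0.846 and 0.706). Of the 12 genes of that list, 2 rose, both encoding small MAF proteins that pair with NRF2 or with BACH repressors. Mafk rose from 46.6 ± 6.19 to 74.7 ± 2.2 CPM and Maff from 0.576 ± 0.190 to 2.21 ± 0.853 CPM (edgeR, adjusted p = 0.00149 and 0.00703).

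**Figure D5:**
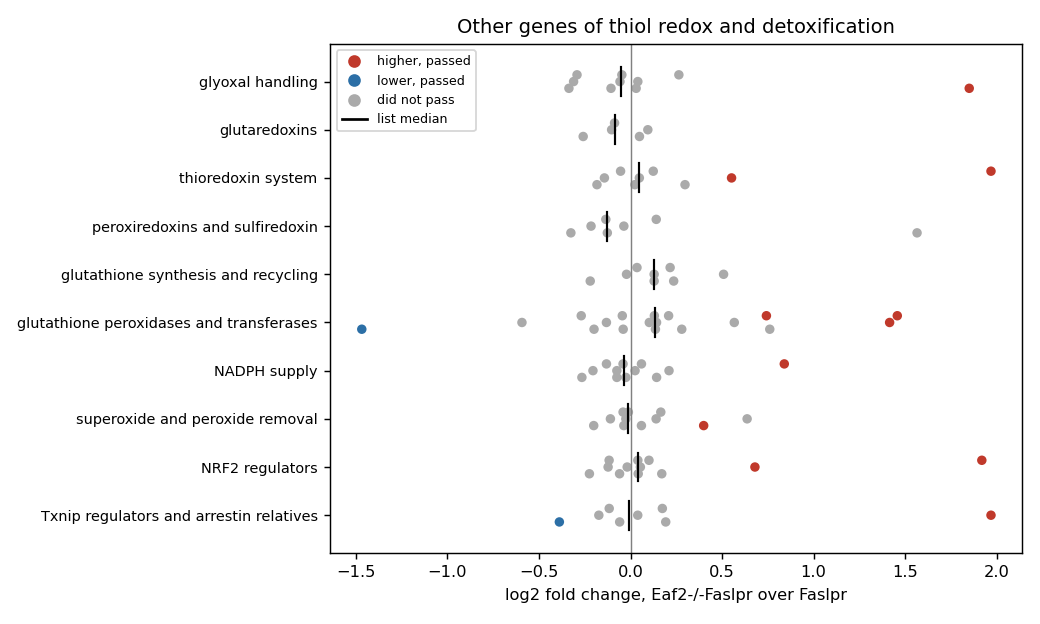
Log2 fold change of each of the tested genes of the 10 wider lists, without the 10 genes of the set, one row a list, with the list median as a vertical line. Medians lie between −0.13 and 0.13, red points are genes that rose, such as Arrdc4 (in the rows of the thioredoxin system and of the Txnip regulators) at 1.97, and blue points are the genes that fell, Mgst3 at −1.47 and Nedd4l at −0.39.

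The genes whose log2 CPM followed Glo1 most closely over the 8 libraries, among 9681 genes with a mean of at least 5 CPM, were Hmga1b, Jup and Arhgap31, with Pearson's r of 0.995, 0.993 and 0.988. Hmga1b, listed at 0 in all Faslpr libraries and at 68.0 ± 14.3 CPM in the other group, is a near-identical copy of Hmga1, and its reads are uncertain. Jup, which encodes plakoglobin, was 29.1 ± 3.76 against 3.81 ± 0.700 CPM, and Arhgap31 38.8 ± 7.74 against 0.337 ± 0.147 CPM. Those closest to Glrx were Basp1, Tvp23a and Dlc1, with r of 0.991, 0.990 and 0.986. Basp1 was 3.32 ± 0.407 against 99.2 ± 6.90 CPM, Tvp23a 9.01 ± 0.0939 against 12.1 ± 0.383 CPM, and Dlc1 0.948 ± 0.240 against 15.5 ± 4.84 CPM. All of these genes differed between the groups in the same libraries, so the correlations are a description and carry no test.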

How the data were processed

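Total RNA of 8 sorted samples was extracted with TRIzol and made into mRNA libraries for DNBSEQ sequencing, per the labels' protocols. HISAT2 2.2.1, Bowtie2 2.4.5, RSEM 1.3.1 and the GRCm39 build are named in the submitters' processing notes. The authors deposited estimated counts per gene and FPKM values, and only 36.8% of the estimated counts were whole (within 0.001). The 16 other per-sample columns were not used.

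Estimated counts were rounded, filtered with filterByExpr (12340 of 17384 genes), scaled by TMM and tested with edgeR 4.0.16 (quasi-likelihood, Benjamini-Hochberg over all tested genes, threshold 0.05, two-sided) in R 4.3.3, genotype being the only term. CPM use the TMM-scaled totals. The standard error is the log2 fold change over the square root of F. limma 3.58.1 and DESeq2 1.42.0 were alternatives, and the code was checked on simulated data. Gene order, chromosomes and promoters come from a RefSeq table of GRCm38.p6, which matched 12253 tested genes. Its promoter coordinates belong to that build.

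The genes and lists were chosen with earlier results of these data known. Named genes are the 10 genes, Eaf2, up to 3 called genes a list and direction, the 5 tested genes on each side of Glo1, Glrx and a called member, the most abundant gene of each cell type list, and the 3 closest by correlation at 5 CPM or more, without predicted genes and receptor segments. Replicate numbers were not taken as pairs.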

Additional observations from a re-analysis of the deposited data

Results flagged for a closer look

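In 5 of 40 groups of 4 libraries examined, 1 library lay apart from the other 3 by Dixon's 95% criterion, which chance meets in about 1 of 20 groups. Glrx was 81.0 CPM in Faslpr replicate 2 and 71.1 to 72.3 CPM in the other Faslpr libraries. Hagh was 12.2 CPM in Eaf2-/-Faslpr replicate 2 and 11.1 to 11.3 CPM in the others of that group. The summed B cell markers were 807 CPM in Eaf2-/-Faslpr replicate 3 and 435 to 455 CPM in the others, and the summed neutrophil markers 82.3 CPM in the same library and 13.8 to 16.4 CPM in the others. The summed erythroid markers were 27.6 CPM in Faslpr replicate 4, the library with the lowest Txnrd1 and the highest Txn1, and 5.56 to 8.22 CPM in the other Faslpr libraries.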

How the results depend on the processing

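Of 39 genes, 25 kept direction and, where tested, call in all 15 alternatives (other scaling, filter, rounding and tools, a replicate block, and libraries left out). The 39 are the 10, Eaf2, the called genes named from the wider lists, the called neighbours of Glo1, Glrx and Gsr, and those closest by correlation. Genes named only under Other observations are not among the 39. In at least 1 alternative 11 lost the call, 2 gained one (Txnrd1, Txn1) and 1, Gclc, changed direction. The Gclc log2 fold change was −0.0030 with no filter, −0.017 without both libraries numbered 4, and −0.025 (without Eaf2-/-Faslpr replicate 4) to 0.040 with single libraries left out. The number of genes called, 1493, ran from 990 without Faslpr replicate 2 to 1599 as single libraries were left out, and was 1955 with DESeq2. Of the 8 genes chosen by function, 1 was called higher with DESeq2 and 1 without both libraries numbered 4, and 0 to 1 with single libraries left out. The number called lower was 0 without both libraries numbered 4 and 0 to 1 with single libraries left out. Of the wider lists, 4 genes fell with DESeq2, and 1 to 3 with single libraries left out. Around Glo1 and Glrx together, 4 neighbours rose and 2 fell with 5 genes a side, and 8 and 4 with 10. Why these counts moved was not tested. Same-numbered libraries correlated at 0.128, 0.168, 0.064 and −0.050 in their deviations from the group means, and 2 of 4 correlated best with their own number. With the replicate number as a block, 1425 genes were called, and of the 39 genes the calls of Gsto1 and Tvp23a were lost (adjusted p = 0.0735 and 0.0544). Without both libraries numbered 4, the calls of Nedd4l, Arsk, Leprotl1 and Tvp23a were lost too (adjusted p = 0.0760, 0.0879, 0.0512 and 0.0632), besides those of Gsr, Txndc12, Arrdc4, Gstt1 and Mgst3. Over all genes with at least 10 reads in a pair, Faslpr replicate 4 stood apart from its group. Its pairs had a chi-square per degree of freedom of 22.3 to 35.1, against 12.8 to 14.8 for the other Faslpr pairs. Pairs with Eaf2-/-Faslpr replicate 4 had 8.97 to 15.7, against 13.7 to 22.2 for the others of that group. Counts of 3 reads, 0.161 to 0.193 CPM, limit only genes far below the 10 described.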

Other observations

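The genes below were chosen after their values were seen. Next to the other members, the neighbourhoods of Txn1, Txnrd1, Txnip and Gclc held none called of 40 genes by edgeR, where 10 were higher and 3 lower at an unadjusted p under 0.05 and DESeq2 and limma-voom each called 1 higher. Of all tested genes, edgeR called 12.1%. Around Gclm, Bcar3, an adaptor protein gene, rose from 1.42 ± 0.684 to 6.48 ± 1.04 CPM (log2 fold change 2.19, edgeR, adjusted p = 0.00119), Rwdd3 rose from 0.468 ± 0.260 to 1.57 ± 0.215 CPM, and Abcd3, a peroxisomal transporter gene, fell from 86.3 ± 10.4 to 67.2 ± 4.22 CPM. Around Hagh, Rps2, a ribosomal protein gene whose reads can be shared with processed copies, fell from 1708 ± 303 to 1209 ± 40.9 CPM and Tbl3 from 35.4 ± 2.80 to 27.5 ± 1.41 CPM. Around Glrx3, Mgmt, which encodes a DNA repair methyltransferase, fell from 40.8 ± 7.84 to 26.4 ± 2.0 CPM (edgeR, adjusted p = 0.0117).

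Among the 10 tested genes on each side of Gsr, Fut10, a fucosyltransferase gene, was 6.75, 5.95, 5.18 and 6.29 CPM in the Eaf2-/-Faslpr libraries and 0, 0, 0.055 and 0 CPM in the Faslpr libraries. The last group is under the level of 3 reads in every library. In the same window Dusp4, a MAP kinase phosphatase gene, rose from 25.9 ± 6.86 to 83.3 ± 9.16 CPM, and in that of Glo1, Pim1, a serine/threonine kinase gene, rose from 47.9 ± 6.23 to 81.5 ± 5.11 CPM (edgeR, adjusted p = 0.000262 and 0.000903). Also in the Glo1 window, Sik1 rose from 5.05 ± 1.36 to 48.4 ± 6.46 CPM and Fgd2 from 2.09 ± 0.795 to 9.14 ± 3.63 CPM (edgeR, adjusted p = 3.79e-06 and 0.00248). Mtch1 fell there, from 289 ± 37.1 to 219 ± 16.8 CPM (edgeR, adjusted p = 0.0251).

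Gstm1, a glutathione transferase gene with close paralogs that can share its reads, was 92.4, 12.7, 11.4 and 31.7 CPM in the Eaf2-/-Faslpr libraries and 25.2, 28.2, 37.0 and 37.1 CPM in the Faslpr libraries. The highest and the lowest of the 8 values were in the same group, and the log2 fold change was 0.21 ± 0.56 SE (edgeR, adjusted p = 0.864).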
